A study of Jatropha curcas with 10 samples.

Results

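The 100 genes described here were low in Jatropha curcas inflorescence meristems 6 h after gibberellin treatment and were still low at 12 h. Jatropha curcas is an oilseed shrub that bears male and female flowers in the same inflorescence, and the inflorescence meristem is the growing tip from which the flowers form. The meristems were collected at 0, 6, 12, 24 and 48 h after exogenous GA3 (gibberellic acid) from 3-year-old material, with 2 libraries per time and 10 in all. All groups, 0 h included, are labelled by their time after GA3, and the labels do not say whether the 0 h meristems had received it. No untreated meristems at the later times are analysed here, so GA3 cannot be told apart from elapsed time or the hour of the day. The sources used here do not say at which dose or how GA3 was given, how many plants went into a library, or whether the 2 libraries of a time are separate plants. P-values therefore measure the spread between these libraries alone, which may be technical.

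Gibberellins act by binding a receptor, and this leads to the breakdown of DELLA proteins, which restrain growth. The hormone class is known for stem elongation, seed germination and flowering. The level of an mRNA reflects both its synthesis and its breakdown, and many plant transcripts also follow the time of day through the circadian clock.

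The 100 members were taken from 28447 gene IDs by their values (RPKM, reads per length of the gene and per total of its library). With each value as log2(RPKM + 1), 14258 genes averaged 5 RPKM or more over the 10 libraries, and 2853 of them also met the conditions on the time means. These were a 6 h mean below that of 0 h, a 12 h mean less than 0.75 (log2) below that of 6 h, and a change at 48 h that was above 0.5 times the changes at both 6 h and 12 h. The 2853 genes were ranked by the gap between the lower 0 h library and the highest of the 4 libraries of 6 h and 12 h, and the first 100 were kept. The values of 0, 6, 12 and 48 h therefore chose the members, and the 24 h libraries entered only through the mean over all libraries. All 100 passed the filter of the test, a mean of at least 1 RPKM, which left 17403 genes. The gap was 4.47 (log2) for rank 1. At the boundary it was 1.085 for rank 99 and 1.081 for rank 100, the last member, and 1.077 and 1.067 for the next genes, which were left out. The last member changed by -1.29 at 6 h and -1.24 at 12 h, and the first gene left out by -1.56 and -1.44.

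Of the members, 99 carried JCGZ locus tags and 1 an ID of the other kind. None of the 28447 IDs could be paired with a gene name (0 matched the RefSeq table of 28617 Jatropha genes), so the members have no names or functions here, no gene positions are given, and the tissue could not be checked against its markers. A few members are given by ID and the others by their rank, where rank 1 has the widest gap. The lengths recovered from the values were multiples of 3 bases for all 99 locus tags, as coding lengths are. They ranged from 267 to 3039 bases with a median of 1149, against a median of 1101 bases for the 16484 locus tags tested. Of the 99, 26 were shorter than the lower quartile of the tested genes (690 bases) and 18 were longer than the upper quartile (1653 bases).

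The libraries held 15934177 to 24448213 recovered reads each. Replicate libraries of a time differed beyond counting noise (chi-square divided by its degrees of freedom, 57.0 to 169.8) and had 0 identical values above 0. At every time the difference between library 1 and library 2 followed gene length. Over the 99 members its Spearman correlation with coding length was 0.26 (0 h) and between -0.42 and -0.24 (later times), and over the 16484 tested locus tags 0.42 and between -0.59 and -0.38. Genes of 1 library share its preparation and depth, so no p is attached.

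The members started at very different levels and fell by different amounts. Their 0 h means ran from 7.35 to 1314 RPKM with a median of 44.3, and 26 members had at least 100 RPKM and 6 at least 500. Together they took 1.51% and 1.39% of the reads of the 0 h libraries, 0.270% and 0.315% (6 h), 0.310% and 0.293% (12 h), 1.45% and 0.977% (24 h) and 1.11% and 1.29% (48 h). Meristem tissue holds several kinds of cell, and in such bulk samples fewer cells of a kind and less RNA per cell cannot be told apart.

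**Figure D1:**
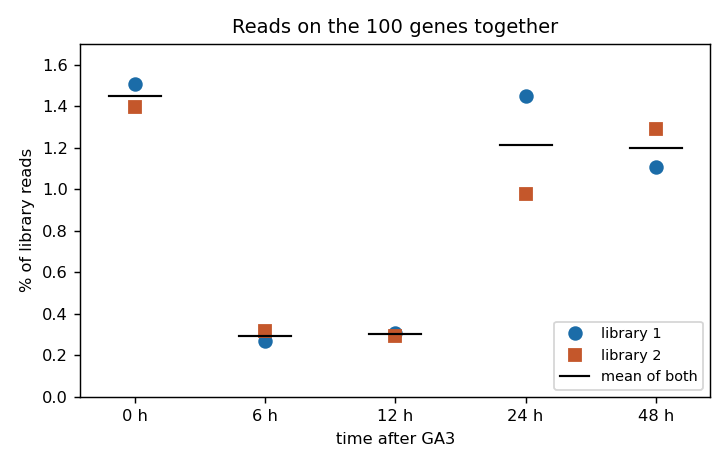
Percentage of the reads of each library that fell on the 100 members, by time after GA3. Points are single libraries and bars the mean of the 2 libraries. The 0 h libraries lie at 1.39% and 1.51%, those of 6 h and 12 h between 0.270% and 0.315%, and the 24 h libraries at 0.977% and 1.45%.

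The low values at 6 h and 12 h are what the members were chosen for and carry no test. The change from 0 h ranged from -5.23 to -1.14 (log2) at 6 h with a median of -2.17, and from -5.39 to -1.24 at 12 h with a median of -2.18. All 17403 tested genes had medians of 0.04 (6 h) and 0.08 (12 h). At both times 49 members were at least 4-fold below 0 h and 11 at least 8-fold below, as differences of log2(RPKM + 1), a scale that shrinks the changes of genes with low values. In 40 members none of the 4 libraries of 6 h and 12 h reached 10 RPKM.

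**Figure D2:**
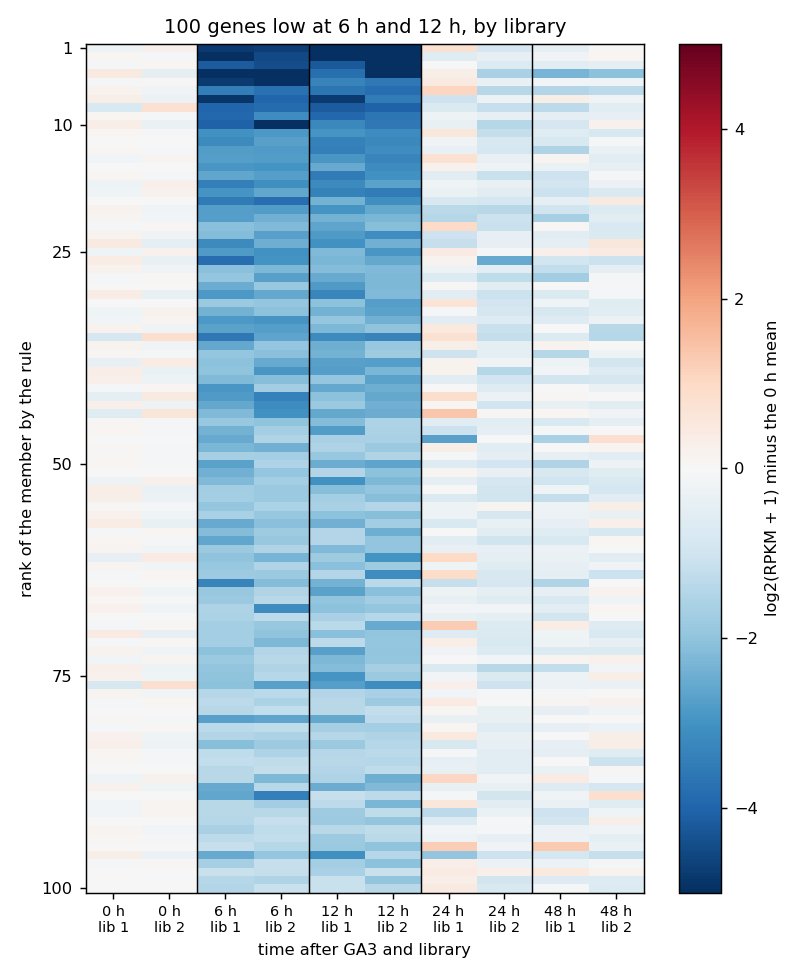
Each row is 1 of the 100 members in rank order and each column 1 library by time after GA3. The colour is log2(RPKM + 1) minus the mean of the 0 h libraries, and colours end at -5 and 5. The 4 columns of 6 h and 12 h are blue in every row, and the 24 h column of library 2 is pale blue in most rows.

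JCGZ_19893 (921 coding bases, rank 1) had the widest gap. Its values were 41.2 and 59.2 RPKM (0 h), 0.818 and 0.909 RPKM (6 h), 0.368 and 0.398 RPKM (12 h), 85.2 and 27.4 RPKM (24 h) and 35.3 and 51.0 RPKM (48 h). The reads behind them were 680 and 1044 (0 h), 12 and 15 (6 h), and 7 in each library of 12 h. All 6 libraries of 0, 24 and 48 h lay far above the 4 of 6 h and 12 h, while the 24 h libraries differed from each other more than the 0 h libraries did.

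JCGZ_14173 (2298 coding bases, rank 2) was among the more abundant members and has more reads behind each value. It stood at 396 and 355 RPKM (0 h), 5.05 and 15.7 RPKM (6 h), 6.71 and 9.50 RPKM (12 h), 243 and 281 RPKM (24 h) and 329 and 398 RPKM (48 h). The lowest of these values rests on 185 reads. Both 24 h libraries were below both 0 h libraries, and the 48 h libraries lay around the 0 h values.

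JCGZ_01421 (1428 coding bases, rank 5) was lowest at 6 h. It measured 725 and 766 RPKM (0 h), 26.3 and 22.7 RPKM (6 h), 72.6 and 61.2 RPKM (12 h), 1029 and 573 RPKM (24 h) and 683 and 647 RPKM (48 h). Both 12 h libraries were above both 6 h libraries, yet they stayed far below every library of 0, 24 and 48 h.

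JCGZ_24966 (270 coding bases, rank 4) had the lowest change at 48 h among the 100 members. Its changes from 0 h were -5.09 (6 h), -4.55 (12 h) and -2.19 (48 h, all log2), so it met the condition at 48 h only narrowly. Its values were 386 and 208 RPKM (0 h), 7.90 and 6.82 RPKM (6 h), 20.1 and 6.01 RPKM (12 h), 345 and 92.5 RPKM (24 h) and 56.1 and 67.4 RPKM (48 h). The 48 h libraries lie below both 24 h libraries, which in turn lie far apart.

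**Figure D3:**
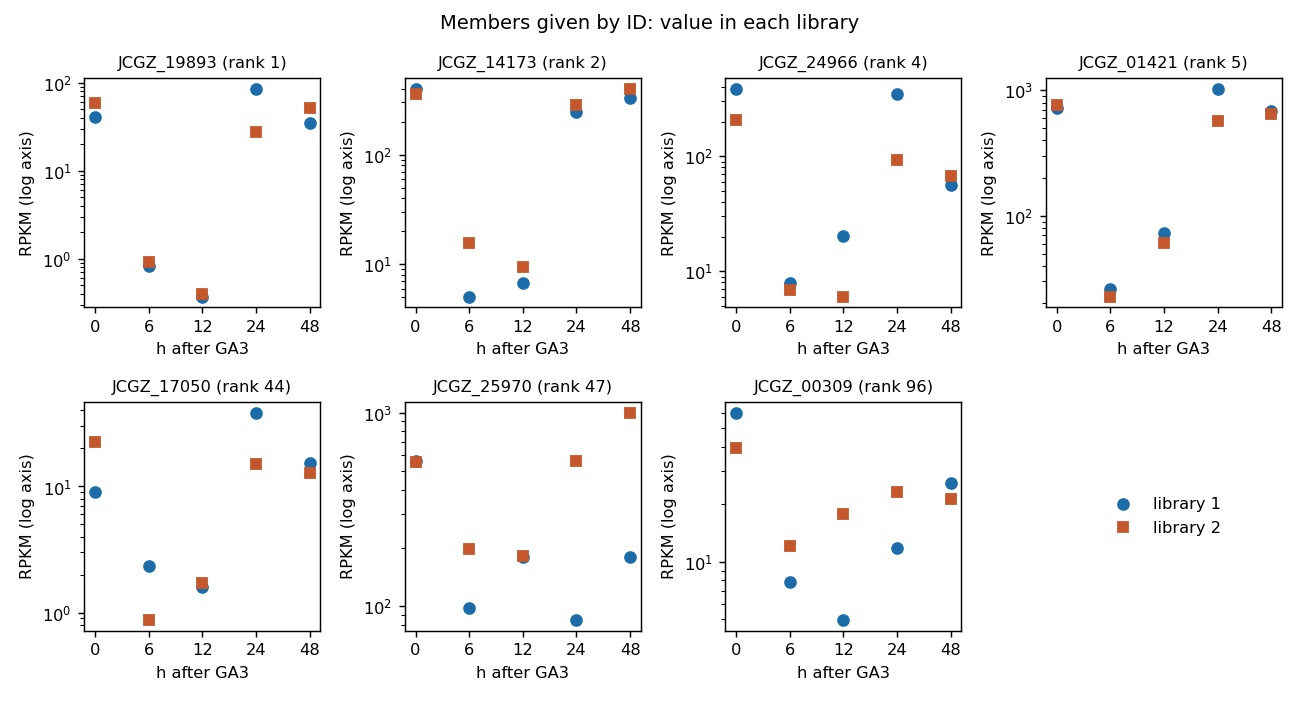
Value in each library (RPKM, log axis) of the 7 members given by ID, against the time after GA3 in h. Circles are library 1 and squares library 2. In 5 of the 7 panels every point of 0, 24 and 48 h lies above all points of 6 h and 12 h. The exceptions are JCGZ_25970, whose library 1 stayed low at 24 h, and JCGZ_00309, whose 24 h library 1 lies below library 2 of 6 h and of 12 h.

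The lowest values rest on few reads. In 16 members at least 1 library of 6 h or 12 h held under 20 reads, and in 2 members, ranks 6 and 8, a 12 h library held 0 reads. At rank 6 the reads were 251 and 205 (0 h), 4 and 1 (6 h) and 3 and 0 (12 h). Its 0 reads allow up to 3, which is 0.167 RPKM at its length, and the limit covers counting error only. At 0 h every member had at least 26 reads in each library, and at 24 h at least 29.

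From 6 h to 12 h most members moved by at most 0.5 (log2), as did a larger share of all genes tested. The rule bounded only a further fall. The difference of the time means had a median of -0.13 (log2) and ran from -0.68 to 1.78. It lay within 0.5 of 0 in 75 members, against 84.0% of all genes tested. At 12 h 14 members were more than 0.5 higher and 11 more than 0.5 lower, against 1487 and 1292 of all 17403 genes. Both 12 h libraries were below both 6 h libraries in 25 members, against 14.0% of all genes tested. They were above them in 12 members, against 11.5% of all genes. The rule used both times, so nothing is read from these counts.

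The highest value, 1.78, belonged to rank 89. It measured 75.7 and 76.3 RPKM (0 h), 11.7 and 6.11 RPKM (6 h), 33.5 and 29.9 RPKM (12 h), 71.6 and 39.9 RPKM (24 h) and 67.1 and 132.6 RPKM (48 h). At 12 h it was already between its 6 h and 0 h levels in both libraries.

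The 24 h libraries, which the rule did not use to place members, tell where these genes stood a day after GA3. Against 12 h, 43 of 100 members rose and 0 fell (limma, Benjamini-Hochberg adjusted p under 0.05 over 17403 genes), where 0.85% of all genes tested rose and 0.305% fell. Against 6 h, 35 rose and 0 fell, where 0.293% of all genes rose and 0.563% fell. The members were picked for being low in the very libraries of 6 h and 12 h that enter these comparisons, and both share the 24 h libraries, so a rise was largely fixed by the choice.

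The change at 24 h against 12 h had a median of 1.81 (log2) over the 100 members and ran from 0.27 to 5.16, where the median of all genes was -0.22. Against 6 h the median was 1.74, from 0.58 to 4.92, and that of all genes -0.18. Both 24 h libraries were above all 4 libraries of 6 h and 12 h in 96 members, against 5.84% of all genes. The members were chosen for low values in those 4 libraries, so this count was largely fixed as well. The 4 members where they overlapped had ranks 26, 47, 91 and 96.

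**Figure D4:**
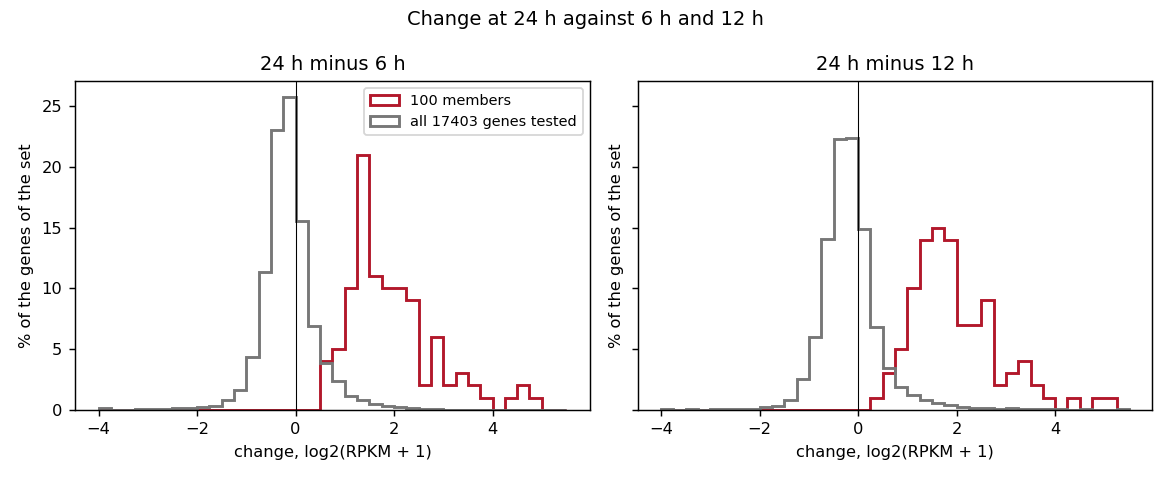
Share of genes (%) by their change at 24 h against 6 h (left) and against 12 h (right), in log2(RPKM + 1), for the 100 members and for all 17403 genes tested. Changes beyond the ends of the axis are drawn in the end bins. The members lie between 0.58 and 4.92 on the left and between 0.27 and 5.16 on the right, and most genes lie around 0.

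The rise at 24 h was widest for JCGZ_19893 and JCGZ_14173 against 12 h, and for JCGZ_01421 against 6 h. The 6 h and 12 h values compared here also chose and ranked these members. The p-values below are therefore a description and no independent support for a rise. JCGZ_19893 averaged 56.3 ± 40.9 RPKM at 24 h and 0.383 ± 0.021 RPKM at 12 h (SD, n = 2 each), which is 5.16 ± 0.49 higher (log2, SE; limma adjusted p = 0.00329). JCGZ_14173 averaged 262 ± 27 RPKM at 24 h and 8.10 ± 1.98 RPKM at 12 h, which is 4.87 ± 0.43 higher (limma adjusted p = 0.00284). JCGZ_01421 averaged 801 ± 322 RPKM at 24 h and 24.5 ± 2.6 RPKM at 6 h, which is 4.92 ± 0.30 higher (limma adjusted p = 0.000882). Against 6 h the change of JCGZ_19893 was 4.73 ± 0.49 (limma adjusted p = 0.00444) and that of JCGZ_14173 was 4.71 ± 0.43 (limma adjusted p = 0.00297). The call of JCGZ_19893 against 6 h was lost without 6 h library 1 or 2 (limma adjusted p = 0.0528 and 0.0532, over 22 alternatives 0.0027 to 0.0754).

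These counts rested on every group of libraries, since all times share 1 estimate of the spread. Leaving out any single library lowered both counts. Among these fits the count against 12 h was lowest without 24 h library 1 and highest without 24 h library 2. The count against 6 h was lowest without 6 h library 2 and highest without either library of 12 h. Fitted to the 4 libraries of a comparison alone, limma called 0 members against 12 h (0 of all 17403 genes) and 2 against 6 h (24 of all genes). Voom on all 10 libraries called 23 members against 12 h (123 of all genes).

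Measured against 0 h, most members lay below their starting level at 24 h, with a median further below it than that of all genes. With limma 0 of 100 members passed the threshold at 24 h in either direction (0.0% of all genes). As 0.0% of all genes were called, the lack of calls does not show that members were back at their 0 h level. At an unadjusted p under 0.05, 6 were lower and 0 higher, where 2.42% and 0.873% of all genes were, and voom on the recovered reads called 0. The change ran from -1.51 to 0.72 with a median of -0.38 (log2), against -0.15 for all genes, and 64 members lay within 0.5 of 0 (76.9% of all genes). Both 24 h libraries were below both 0 h libraries in 43 members and above them in 1, against 21.2% and 9.02% of all genes. The 0 h values of the members were part of the choice.

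On the scale from the mean of 6 h and 12 h (0%) to the 0 h mean (100%), the members at 24 h had a median of 83.1% and ranged from 25.2% to 132.7%. In 56 members it reached at least 80%, in 16 it passed 100%, and in 5 it was under 50%. Both ends of the scale are values that chose the members, and the rule also bounded the change at 48 h. The percentages are therefore a description of these members only, and other genes were not placed on the scale. The highest, at rank 95, rested on library 1 of 24 h. It measured 18.8 and 6.33 RPKM at 24 h, against 7.14 and 7.56 RPKM at 0 h.

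The extremes at 24 h were JCGZ_00309 and JCGZ_17050, and neither passed the test. JCGZ_00309 (1848 coding bases, rank 96) measured 60.6 and 39.6 RPKM (0 h), 7.81 and 12.0 RPKM (6 h), 4.93 and 17.8 RPKM (12 h), 11.8 and 23.2 RPKM (24 h) and 25.9 and 21.2 RPKM (48 h). Its libraries of 24 h and 48 h all lay below both 0 h libraries, and its 24 h mean was at -1.51 ± 0.56 from 0 h (log2, SE; limma adjusted p = 0.951). JCGZ_17050 (642 coding bases, rank 44) measured 9.03 and 22.4 RPKM (0 h), 2.35 and 0.869 RPKM (6 h), 1.58 and 1.71 RPKM (12 h), 38.5 and 15.1 RPKM (24 h) and 15.4 and 12.7 RPKM (48 h). One of its 24 h libraries lay above both 0 h libraries and the other between them, with a change of 0.72 ± 0.54 (limma adjusted p = 0.951). That change depended on single libraries: leaving out library 1 or library 2 of 24 h gave 0.07 or 1.37, and leaving out library 1 or library 2 of 0 h gave 0.11 or 1.33.

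The 2 libraries of 24 h placed the members at different levels. Library 1 was above library 2 in 80 of 100 members, against 40.1% of all genes tested, with a median difference of 0.45 (log2) for the members and -0.17 for all genes. At the other times library 1 was above library 2 in 60 members (0 h, 63.7% of all genes), 49 members (6 h, 37.9%), 47 members (12 h, 43.5%) and 39 members (48 h, 47.6%). At 24 h most members and most other genes therefore differed in opposite directions.

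The share was higher for the members than for all tested genes in short and in long genes. Among members under 1000 coding bases, library 1 was above library 2 in 36 of 40 (90.0%), against 60.3% of 7234 tested genes of that length. Among members of 1000 bases or more it was above in 44 of 59 (74.6%), against 22.1% of 9250 genes. With 1 library on each side there is no replicate of this difference and no test.

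**Figure D5:**
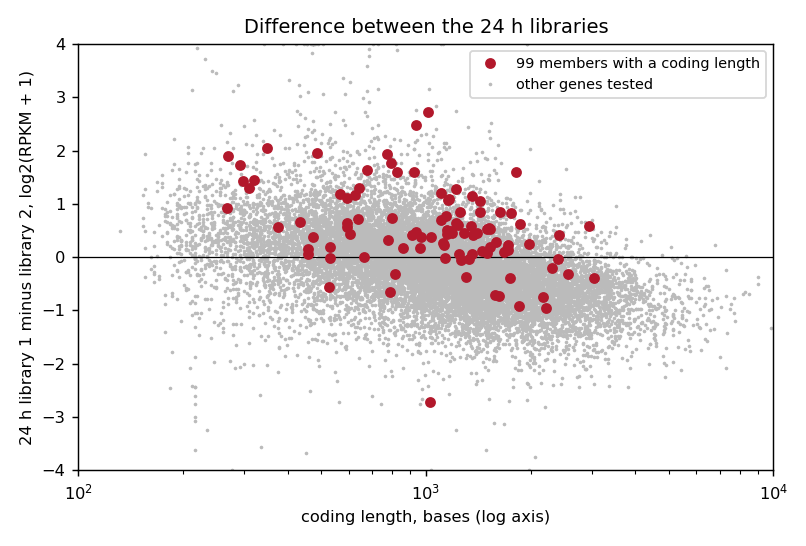
Difference between the 24 h libraries, library 1 minus library 2 in log2(RPKM + 1), against coding length in bases on a log axis, for the 99 members with a locus tag and for other tested genes. Other genes beyond -4 or 4 are drawn at the edge. Of the members, 80 of 100 (with the ID of the other kind) lie above 0, and the cloud of other genes slopes downwards with length.

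Seen from 0 h, library 1 of 24 h was below both 0 h libraries in 49 members (56.0% of all genes) and above both in 31 (26.5% of all genes). Library 2 was below both in 85 members (37.0% of all genes) and above both in 3 (26.3% of all genes). The median change from the 0 h mean over the members was -0.15 (log2) in library 1 and -0.57 in library 2, against -0.23 and -0.05 for all genes. The 2 libraries held 18113427 and 24448213 reads, and the part of depth in the difference was not tested.

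Rank 47, JCGZ_25970 (1029 coding bases), went the other way from most members. It measured 563 and 556 RPKM (0 h), 97.4 and 198 RPKM (6 h), 180.0 and 181 RPKM (12 h), 84.3 and 561 RPKM (24 h) and 179 and 999.8 RPKM (48 h). In library 1 the values of 24 h and 48 h were as low as those of 6 h and 12 h, and in library 2 they were at or above the 0 h values. Its difference between the 24 h libraries was -2.72 (log2), the lowest among the members, and rests on 1572 and 14108 reads.

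No change of the members was called between 48 h and 24 h. At 48 h against 24 h limma called 0 members (0.0% of all genes), 0 members reached an unadjusted p under 0.05 (1.13% of all genes higher and 0.764% lower), and voom on the recovered reads called 0 as well. The median change was -0.05 (log2), from -1.53 to 0.95, against 0.11 for all genes. Within 0.5 of 0 lay 83 members, against 76.1% of all genes. Both 48 h libraries were below both 24 h libraries in 8 members and above them in 10, against 8.5% and 17.9% of all genes. The members with the largest change in each direction were JCGZ_24966, at -1.53 ± 0.68 (log2, SE; limma adjusted p = 0.905), and JCGZ_25970, at 0.95 ± 0.97 (limma adjusted p = 0.905). For JCGZ_24966, leaving out library 1 of 24 h gave -0.58, and leaving out library 2 gave -2.47. The change of JCGZ_25970 turned to -0.40 without 24 h library 1 and to -0.28 without 48 h library 2.

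At 48 h, a time the rule used as a lower bound, the change from 0 h had a median of -0.40 (log2), from -2.19 to 0.48, and that of all genes was -0.02. Both 48 h libraries were above all libraries of 6 h and 12 h in 98 members (6.33% of all genes), with ranks 47 and 64 as the exceptions. The members were chosen for low values at 6 h and 12 h and for the bound at 48 h. That count was therefore largely fixed by the choice, and nothing is read from it. Both 48 h libraries were below both 0 h libraries in 49 members, against 17.6% of all genes, and above both in 3, against 12.6%. The 0 h values were part of the choice here too.

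Other genes had as wide a gap and were left out by the conditions on 12 h and 48 h. In all, 179 genes of sufficient mean had a gap at least that of rank 100, of which 55 fell further at 12 h than the rule allows and 24 failed only the condition at 48 h. Of the 55, 40 met the condition at 48 h. These 40 had median changes (log2) of -2.46 (6 h), -3.68 (12 h), -0.42 (24 h) and -0.59 (48 h). The 24 genes had medians of -1.80 (6 h), -2.01 (12 h), -0.91 (24 h) and -1.17 (48 h). The members, at -0.38 (24 h) and -0.40 (48 h), had medians nearer to 0 than the 24 genes. The sets were defined by the libraries of 0, 6, 12 and 48 h, and the change at 24 h subtracts the same 0 h mean as the change at 48 h, so the values of both times are given as a description with no test.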

How the data were processed

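Total RNA was sequenced from 10 inflorescence meristem libraries, and each deposited table gives 1 value per gene ID; per the file headers, no unit is named. RPKM was taken as the unit of the deposited values because whole reads could be recovered from them. For each gene a whole length was searched that turns all its values into whole reads, given a whole denominator per library. It was found for every gene with reads (0 not recovered). That 100.0% of 203696 values above 0 were whole reads within 0.01 follows from this search. Multiples of 3 were not searched for, and made up 96.1% of the locus tag lengths and 34.0% of those of the other IDs. The submitters' processing notes list Bowtie 0.12.2 and a mouse build, mm8, without saying what for; the sources used here do not give the counting tool, the annotation or the genome aligned to. Reads recovered in this way served for depth and for an added voom fit.

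Changes were tested with limma 3.58.1 (R 4.3.3; trend and robust moderation) on log2(RPKM + 1) for 17403 genes averaging 1 RPKM or more, all 10 libraries in 1 model with time as a factor, threshold 0.05 after Benjamini-Hochberg adjustment per comparison. The steps were tested on simulated data. The 4 comparisons are those with the 24 h libraries. Genes given by ID are ranks 1 and 2, at most 2 called members per direction and comparison with the largest change, and, where none was called, the largest change in each direction. The members, lists and tests were chosen with earlier results of these data known. Gene lists by product could not be run without names. Alternatives were pseudocount, filter, moderation, scaling, libraries in the fit, replicate block, single libraries left out and, added after seeing the data, voom, a coding length correction and crossed library numbers. Python 3.11.15, pandas 2.3.3 and matplotlib 3.10.9 were used for the rest.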

Additional observations from a re-analysis of the deposited data

Results flagged for a closer look

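In 43 members the change from 0 h was not the same at 24 h as at 12 h, and in 35 members not the same at 24 h as at 6 h (limma, adjusted p under 0.05). Each difference was tested directly as the contrast of the 2 times, so these are the calls given above and no second result. Of all genes tested, 0.85% were higher and 0.305% lower at 24 h than at 12 h. Against 6 h, 0.293% were higher and 0.563% lower. Between 24 h and 12 h the difference was 5.16 (log2) for JCGZ_19893 and 4.87 for JCGZ_14173. Between 24 h and 6 h it was 4.73 for JCGZ_19893, 4.71 for JCGZ_14173 and 4.92 for JCGZ_01421. The 6 h and 12 h libraries had chosen these genes, so such differences were largely fixed by the choice.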

How the results depend on the processing

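The number of members called at 24 h against 12 h was 43, and 35 against 6 h (201 and 149 of all 17403 genes, both directions together). Within 1.5 times of these were pseudocounts of 0.1 and 5, a filter at a mean of 5, non-robust moderation, median centring, quantile normalization and the coding length correction. Beyond it, the counts without the filter on low values were 27 and 23 (131 and 124 of all 22085 genes, both directions together). In the 4 libraries of a comparison they were 0 and 2 (0 and 24 of all 17403 genes). By voom they were 23 and 18 (123 and 95 of all genes). The coding length correction with the replicate block gave 73 and 67 (495 and 418 of all genes). Leaving out single libraries gave 7 to 30 and 4 to 24. The cause of these moves was not tested, and some of the fits hold fewer libraries. Against 0 h at 24 h, and at 48 h against 24 h, every alternative called 0 members. In the 4 libraries of the comparison limma adjusted p for JCGZ_19893 was 0.146 (12 h) and 0.0754 (6 h), and for JCGZ_14173 0.0531 and 0.0577. The change of JCGZ_25970 at 48 h against 24 h reversed to -0.40 without 24 h library 1 and to -0.28 without 48 h library 2, within a range of -0.40 to 2.31 over single libraries left out (2.31 without 24 h library 2).

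Library numbers are shared between times, but nothing in the labels says that they pair samples. The replicate differences correlated over genes at 0.54 to 0.70 among the later times and at -0.32 to -0.14 between 0 h and the later times. The replicate block gave 58 members against 12 h (321 of all genes) and 46 against 6 h (267 of all genes). It gave 0 at 24 h against 0 h and at 48 h against 24 h. With the 0 h numbers crossed, the block called 0 members at 24 h against 0 h and 1 gene of all tested.

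The median change of the members was -0.38 (log2) at 24 h and -0.57 to -0.15 with single libraries left out. At 48 h it was -0.40, and -0.41 to -0.29 with single libraries left out, the highest without 48 h library 1. Chosen under other settings, the list shared 65 members at a minimum mean of 20 RPKM, 82 to 92 under other pseudocounts, a minimum mean of 1 or quantile normalization, and 76 to 99 with single libraries left out. With 2 libraries per time, the precision is set by the spread between them and, in 16 members, by under 20 reads.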

Other observations

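Of the 99 locus tags, 1 pair had consecutive numbers and 4 neighbouring pairs were at most 10 apart. No map of the locus tags was used, so their distance in the genome is not known here. The consecutive pair had ranks 53 and 70, with coding lengths of 267 and 1674 bases. Rank 53 measured 68.7 and 42.4 RPKM (0 h), 15.3 and 14.2 RPKM (6 h), 11.4 and 13.3 RPKM (12 h), 54.6 and 28.2 RPKM (24 h) and 46.1 and 29.4 RPKM (48 h). Rank 70 measured 25.5 and 14.0 RPKM (0 h), 5.21 and 3.90 RPKM (6 h), 3.62 and 4.04 RPKM (12 h), 11.9 and 11.0 RPKM (24 h) and 16.3 and 10.7 RPKM (48 h). In both, library 1 was above library 2 at 0, 6, 24 and 48 h and below it at 12 h. Over the 100 members it was above in 60 (0 h), 49 (6 h), 47 (12 h), 80 (24 h) and 39 (48 h). Whether any of these neighbours are copies of each other is not known here, as no sequences were at hand. Reads that near-identical copies share could be split between them, and the sources used here do not say how the authors counted such reads.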
